A study of Mus musculus with 17 samples.

Results

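The 9 genes described here encode cell adhesion proteins whose expression helps to tell podocyte, parietal epithelial and mesenchymal cells apart: the cadherins Cdh1, Cdh2, Cdh3, Cdh6 and Cdh11, the catenins Ctnnb1 and Jup, the tight junction protein Cldn1 and the immunoglobulin-family adhesion molecule Ncam1. They were taken by symbol from the 56748 gene rows of the deposited table, where all 9 were found, and 8 of them had enough reads to be tested. The rows were ENSMUSG00000000303 for Cdh1, ENSMUSG00000024304 for Cdh2, ENSMUSG00000061048 for Cdh3, ENSMUSG00000039385 for Cdh6, ENSMUSG00000031673 for Cdh11, ENSMUSG00000006932 for Ctnnb1, ENSMUSG00000001552 for Jup, ENSMUSG00000022512 for Cldn1 and ENSMUSG00000039542 for Ncam1. All libraries came from E11 cells, a murine podocyte line, grown on the silicone polydimethylsiloxane. The surfaces were flat (NT, 5 libraries), patterned with round, non-fractal relief (RT, 6 libraries) or patterned with a high fractal relief traced from healthy glomeruli (HF, 6 libraries), and the labels set NT and RT as controls for HF. The labels give no other treatment, no genotype, no culture time and no statement of what a replicate is, so every p-value below is set against differences among libraries of one surface that may be no more than technical. E11 is a single immortalised line, and results from it describe that line alone. Totals ran from 14913649 to 24072966 counts per library. NT 5 stood apart from the other NT libraries: chi-square per degree of freedom over genes was 7.89 to 11.1 in its pairs with them and 3.75 to 6.71 in pairs among the other 4.

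Classical cadherins hold neighbouring cells together by binding the same cadherin on the next cell. Inside the cell their tails bind beta-catenin (Ctnnb1) or plakoglobin (Jup), which connect through alpha-catenin to actin, and beta-catenin released from junctions also acts with TCF/LEF factors in Wnt signalling. In the kidney, E-cadherin (Cdh1) marks distal tubule and collecting duct, cadherin-6 (Cdh6) and N-cadherin (Cdh2) are found in early nephron and proximal tubule cells, P-cadherin (Cdh3) has been described at the podocyte slit diaphragm, and cadherin-11 (Cdh11) is a cadherin of mesenchymal cells. Claudin-1 (Cldn1) marks the parietal epithelium of Bowman's capsule. Ncam1 is found in the developing nephron, and in adult kidney it has been used to mark rare parietal and interstitial cells.

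Of the 9 genes, E11 cells held most beta-catenin, similar levels of Cdh11, Cdh2 and Cdh6, and almost no E-cadherin. Levels of different genes are compared as CPM (read counts scaled to a common library size) per kb of exon, averaged over the 17 libraries. Ctnnb1 was highest at 116 CPM per kb, followed by Cdh11 at 49.2, Cdh2 at 46.8, Cdh6 at 41.5, Cldn1 at 37.6 and Ncam1 at 33.2. The neighbours from Cdh11 to Ncam1 stood close, each 1.05 to 1.13 times the next, and none of these steps held in every library: Cdh11 was above Cdh2 in 14 of 17 libraries, Cdh2 above Cdh6 in 16, Cdh6 above Cldn1 in 13 and Cldn1 above Ncam1 in 15. Jup stood lower at 10.1 CPM per kb and Cdh3 at 0.993, and these steps held in all 17 libraries. Cdh1 had 4 reads in all, in 3 of the 17 libraries (1 read in RT 3, 2 in HF 3 and 1 in HF 6).

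The 5 NT libraries held 0 Cdh1 reads, which allows a level of up to 0.0358 CPM, the value of 3 reads over the group. Against that limit Cdh2 was at least 6285-fold higher per length in NT. RT had 1 Cdh1 read and HF 3, too few to compare the surfaces at this depth. Cdh1 therefore entered no test.

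**Figure D1:**
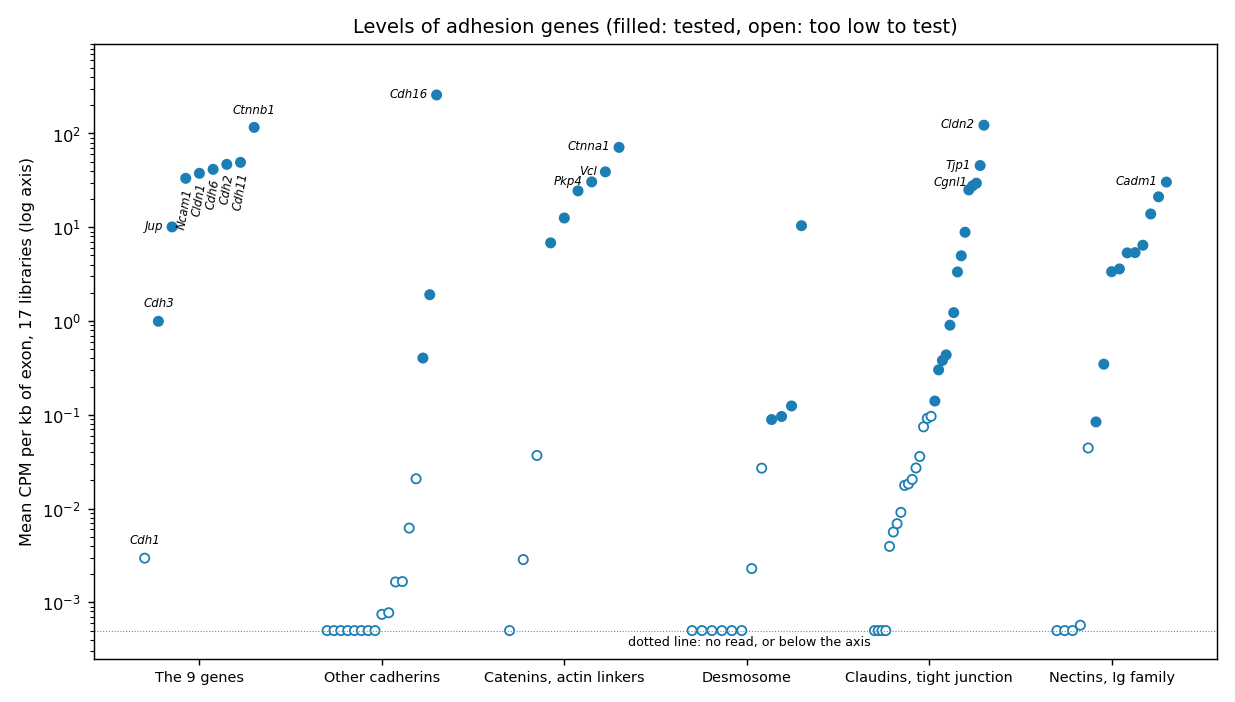
Each point is 1 gene, and the vertical log axis gives its mean CPM per kb of exon over the 17 libraries, for the 9 genes and 5 other lists of junction genes. Cdh1 sits at the bottom of its column, while Ctnnb1 at 116 and Cdh16 at 257 CPM per kb stand near the top of theirs.

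The rest of the junction repertoire was as uneven. Of 17 other cadherins, 14 never exceeded 10 reads in a library and 8 had none. The most abundant was Cdh16, the kidney-specific cadherin of tubules, at 257 CPM per kb. The endothelial cadherin Cdh5 did not exceed 1 read. Of 12 desmosomal genes, 6 had no read, namely the desmogleins Dsg1a, Dsg2 and Dsg3 and the desmocollins Dsc1, Dsc2 and Dsc3, and only the plaque protein Pkp2 was abundant (10.4 CPM per kb). Epcam, an adhesion molecule of most simple epithelia, was at 0 in all libraries, and occludin (Ocln) had at most 2 reads. Among claudins the leaky-epithelium claudin Cldn2 was highest, at 123 CPM per kb. Of 30 other claudin and tight junction genes 14 could be tested, among them Tjp1 at 45.5 CPM per kb. Of 15 nectins and related molecules 10 could be tested, with Cadm1 highest at 30.3 CPM per kb. Of 7 epithelial transcription and splicing factors 6, Grhl2 and Esrp1 among them, never exceeded 10 reads in a library. Of 6 mesenchymal transition factors 5 could be tested, led by Twist1 (25.3 CPM per kb), Snai2 (20.6) and Zeb1 (8.48). The other, Snai1, was too low to test, with 2 to 13 reads per library (0.216 CPM per kb).

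Labels and markers matched in part. Of 14 podocyte markers 10 could be tested, with Pdpn, Kirrel and Synpo highest (89.4, 82.8 and 28.6 CPM per kb), while the podocyte genes Ptpro and Cdkn1c had at most 1 and 3 reads in any library and Tcf21 none. Parietal epithelial markers besides the 9 genes were led by Akap12, Cd24a and Dkk3 (379, 304 and 232 CPM per kb). In the same list Krt18 had no read, and Krt8, Scin and Prom1 were low (0.0870, 0.0320 and 0.0748 CPM per kb). Tubule markers included Aqp1 and Lrp2 (90.5 and 23.9 CPM per kb), while Slc34a1 and Aqp2 had no read and Umod at most 2 in any library. Mesenchymal markers were led by Vim, Fn1 and Acta2 (487, 305 and 152 CPM per kb), while Thy1 and Col1a2 had at most 1 and 5 reads in any library. Endothelial markers summed to at most 3.65 CPM and immune markers to at most 2.87 CPM in any library, with Kdr, Tie1, Adgre1, Cd3e, Itgam and C1qa at 0, and the highest of each was Flt1 (0.124 CPM per kb) and Cd68 (1.40 CPM per kb).

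Small differences between surfaces passed the test for Ncam1, Cdh2, Cdh11, Cdh6 and Cldn1, each in 1 or 2 of the 3 comparisons. The 8 tested genes were chosen with earlier results of these data known. By level per length, Ctnnb1, Cdh11, Cdh2, Cdh6, Cldn1 and Ncam1 stood at percentile 90.2 or higher among genes tested. Counts of the 8 are therefore given beside shares of all genes as a description, not as a test of the set. Against the flat surface, 3 were lower and 0 higher on HF (Ncam1, Cdh2 and Cdh11), where edgeR called 2.33% of all genes, 0.829% as lower and 1.5% as higher. The median log2 fold change of the 8 was -0.09, and that of all genes tested was -0.0025. Against the round relief, 2 were lower and 0 higher on HF (Ncam1 and Cdh6), where 0.211% of all genes were called, 0.079% as lower and 0.132% as higher. The median of the 8 was -0.07, and that of all genes -0.00072. On RT, 1 was higher and 1 lower than on NT (Cdh6 and Cldn1), where 3.97% of all genes were called, 2.53% as higher and 1.44% as lower. The median of the 8 was -0.04, and that of all genes -0.0021. Each pair of these comparisons shares the libraries of 1 surface, so they are not independent. The called change farthest from 1 was that of Ncam1 on HF, 0.852 times its level on NT. At an unadjusted p under 0.05, the share of all genes tested was 14.2% between HF and NT, 8% between HF and RT and 17.1% between RT and NT. Without NT 5, the calls against NT held, with log2 fold changes on HF of -0.22 for Ncam1 (edgeR adjusted p = 1.47e-05), -0.17 for Cdh2 (0.00153) and -0.19 for Cdh11 (0.000438). On RT they were 0.12 for Cdh6 (edgeR adjusted p = 0.0315) and -0.23 for Cldn1 (0.0305).

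Ncam1 was lower on the fractal surface than on either control. This molecule binds itself on neighbouring cells and signals with FGF receptors. Its levels in the 5 NT libraries were 298, 311, 310.3, 313 and 319 CPM. RT ran from 289 to 296 CPM with a median of 294, and HF from 257 to 279 CPM with a median of 263. All 6 HF libraries lay below every NT library, as in 0.934% of all genes tested, and below every RT library, as in 0.52%. All 6 RT libraries lay below every NT library, as in 1.22%. In bulk RNA, fewer cells that express a gene and less of its RNA per cell cannot be told apart.

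Relative to NT, HF differed by -14.8% (95% confidence interval -18.4% to -11.0%), or -0.23 ± 0.03 on the log2 scale (SE, edgeR quasi-likelihood adjusted p = 2.53e-05), which ranked 5 by p among 15196 genes. Relative to RT, HF differed by -9.97% (interval -13.6% to -6.20%), or -0.15 ± 0.03 on the log2 scale (SE, edgeR adjusted p = 0.0109). Both calls held in every alternative run (20 and 21), the omission of each library among them. For RT against NT the log2 fold change was -0.08 ± 0.03 (SE, edgeR adjusted p = 0.153), which did not pass, while DESeq2 called it (adjusted p = 0.0447). Of Ncam1's exon bases, 4.81% overlap Gm11149 on the opposite strand, and the libraries did not record strand.

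Of 8 listed enzymes and partners of Ncam1, 6 were tested. By edgeR 1 was higher and 0 lower on HF than on NT, where 2.33% of all genes were called. Between HF and RT 0 passed by edgeR, DESeq2 or limma voom (4 of the 6 had an unadjusted p under 0.05, against 8% of all genes). The gene that edgeR called was Gdnf, a ligand of the kidney's RET receptor that can also bind Ncam1. It stood at 4.53 ± 0.737 CPM on NT (SD, n = 5) and 7.0 ± 0.838 CPM on HF (SD, n = 6). The difference was 0.62 ± 0.12 on the log2 scale (SE, edgeR adjusted p = 0.00344). St8sia2, which adds polysialic acid to Ncam1, stood at 51.0 ± 4.96 CPM on NT (SD, n = 5), 59.0 ± 4.13 on RT and 51.8 ± 4.78 on HF (SD, n = 6 each), and passed in no comparison by edgeR. Its log2 fold change for RT against NT was 0.21 ± 0.06 (SE, edgeR adjusted p = 0.0621). St8sia4, the other polysialyltransferase, had no read. DESeq2 called 2 of the 6 as higher on HF than on NT, where it called 342 of 15196 genes as higher. For RT against NT it called 1 of the 6 as higher, and 504 of all genes.

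N-cadherin and cadherin-11 were lower on HF than on NT, by -8.90% and -9.54%, and both calls were lost when certain single libraries were left out. Cdh2, the cadherin gained in epithelial to mesenchymal change, stood at 423, 406, 391, 404 and 363 CPM in NT. Its RT libraries ran from 359.7 to 396 CPM with a median of 377, and its HF libraries from 343 to 382 CPM with a median of 365. NT and HF overlapped only because NT 5, the lowest NT library, lay within the HF range. The log2 fold change of HF against NT was -0.13 ± 0.04 (SE, edgeR adjusted p = 0.0417). It was -0.06 ± 0.04 against RT (SE, edgeR adjusted p = 0.713).

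Cdh11 stood at 493, 493, 473, 466 and 413 CPM in NT, from 408 to 441 CPM in RT (median 431) and from 399 to 454 CPM in HF (median 421). Again NT 5 was the low NT library, and the other 4 lay above every RT and HF library. HF against NT gave a log2 fold change of -0.14 ± 0.04 (SE, edgeR adjusted p = 0.0397), and RT against NT gave -0.13 ± 0.04 (SE, edgeR adjusted p = 0.0638), which passed with upper-quartile scaling (adjusted p = 0.0454) and with no filter on low counts (0.0166). HF and RT differed by -0.02 ± 0.04 (SE, edgeR adjusted p = 0.963), with a 95% interval of -0.10 to 0.06. Without NT 5, RT against NT was called for Cdh11 (log2 fold change -0.17, edgeR adjusted p = 0.00107) and for Cdh2 (-0.11, edgeR adjusted p = 0.0447). In HF against NT, leaving out any 1 of 7 libraries ended the call of Cdh2 (NT 1, NT 2, NT 3, NT 4, HF 1, HF 4 or HF 5; edgeR adjusted p up to 0.111), and any 1 of 8 ended that of Cdh11 (the same 7 or HF 3; up to 0.119). Both calls also ended with limma voom (adjusted p = 0.0527 and 0.0572).

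Cadherin-6 followed a different order, highest on the round relief. Cdh6 stood at 349, 389, 365, 373 and 329.99 CPM in NT, from 378 to 414 CPM in RT (median 408) and from 345 to 375 CPM in HF (median 359). HF lay within the NT range, and 4 of 6 RT libraries lay above every NT library. All 6 HF libraries lay below every RT library, as in 0.52% of all genes tested. RT was higher than NT by a log2 fold change of 0.15 ± 0.04 (SE, edgeR adjusted p = 0.0157), and this call held in all 20 alternatives. HF stood below RT, with a log2 fold change of -0.16 ± 0.04 (SE, edgeR adjusted p = 0.0474). That second call was lost without any of RT 1, RT 2, RT 3, RT 6, HF 1, HF 2, HF 4, HF 5 or HF 6, and with limma voom or RLE scaling (adjusted p = 0.0601 and 0.052). HF and NT differed by -0.01 ± 0.04 (SE, edgeR adjusted p = 0.956), with a 95% interval of -0.08 to 0.07.

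Claudin-1 was lower on RT than on NT, where Cdh6 was higher. Cldn1 stood at 219, 187, 197, 195 and 189 CPM in NT, from 159.9 to 185 CPM in RT (median 168) and from 158 to 197 CPM in HF (median 183). Every RT library lay below every NT library, as in 1.22% of all genes tested, while HF overlapped both ranges. The log2 fold change of RT against NT was -0.21 ± 0.05 (SE, edgeR adjusted p = 0.0157), a change of -13.5% (95% interval -19.5% to -7.09%), and it was called in all 20 alternatives. HF against NT gave -0.12 ± 0.05 (SE, edgeR adjusted p = 0.233) and HF against RT gave 0.09 ± 0.05 (SE, edgeR adjusted p = 0.697). Neither passed in any alternative.

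The sequences before the starts of Cdh6 and Cldn1 are shown because these genes changed in opposite directions on RT. RefSeq's table for GRCm38.p6 held promoters for 4 of the 9 genes. The 250 bases before the listed start are printed, in gene direction, from chr15:13173676-13173925 (minus strand) for Cdh6 and chr16:26371840-26372089 (minus strand) for Cldn1, coordinates of a build earlier than the GRCm39 named for the counts. Capitals mark the core of the TCF/LEF motif, through which beta-catenin acts on genes, searched as CTTTGT or CTTTGA on both strands.
Cdh6: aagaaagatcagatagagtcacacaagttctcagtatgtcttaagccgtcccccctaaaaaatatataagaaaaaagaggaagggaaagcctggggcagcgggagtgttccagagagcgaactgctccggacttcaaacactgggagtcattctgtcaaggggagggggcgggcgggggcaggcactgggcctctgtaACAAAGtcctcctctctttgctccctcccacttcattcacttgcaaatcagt
Cldn1: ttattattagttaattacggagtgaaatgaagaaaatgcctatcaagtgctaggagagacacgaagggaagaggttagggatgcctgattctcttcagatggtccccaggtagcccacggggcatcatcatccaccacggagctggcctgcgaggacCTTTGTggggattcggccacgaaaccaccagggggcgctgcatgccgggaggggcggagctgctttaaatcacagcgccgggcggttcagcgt
Each held 1 such core, at positions -52 to -47 in Cdh6 (as its reverse complement) and -93 to -88 in Cldn1, counted back from the start. Of the 32851 promoters in the table, 27.6% held at least 1 of these cores in the same window. The E-box CAGGTG, bound by Snail and Zeb factors, was searched on both strands too and was in neither window, against 17.2% of all promoters. These matches describe letters only.

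P-cadherin was low. Cdh3 stood at 3.77, 3.59, 3.86, 3.82 and 3.59 CPM in NT, from 4.27 to 5.67 CPM in RT (median 4.56) and from 3.56 to 5.96 CPM in HF (median 4.44), from 53 to 108 reads per library. All 6 RT libraries were above every NT library, as in 2.18% of all genes, and 5 of 6 HF libraries were. RT against NT had a log2 fold change of 0.34 ± 0.13 (SE, edgeR adjusted p = 0.159) and HF against NT 0.27 ± 0.13 (SE, edgeR adjusted p = 0.358), and neither passed. The 95% interval for RT ran from 5.12% to 52.4% above NT.

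Neither catenin passed in any comparison in the edgeR fit of all libraries. Ctnnb1 stood at 597, 617, 620.3, 629.97 and 562 CPM in NT, from 585 to 612 CPM in RT (median 603) and from 584 to 621 CPM in HF (median 609). The 3 groups overlapped, with NT 5 lowest of all 17 libraries. HF against NT gave a log2 fold change of -0.0031 ± 0.033 (SE, edgeR adjusted p = 0.982), with a 95% interval of -0.07 to 0.06, so changes beyond -4.72% or 4.50% lay outside it. Of Ctnnb1's exon bases 15.1% overlap Ulk4 or Mir7090, and how the counting split such reads is not given in the sources used here.

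Plakoglobin, which can stand in for beta-catenin at junctions, stood at 65.7, 68.4, 61.7, 61.8 and 61.8 CPM in NT, from 65.3 to 78.6 CPM in RT (median 66.6) and from 54.5 to 70.9 CPM in HF (median 60.8). For Jup, 5 of 6 HF libraries lay below every RT library and HF 3 lay among them. HF against RT had a log2 fold change of -0.16 ± 0.05 (SE, edgeR adjusted p = 0.271), which passed without HF 3 (-0.21, adjusted p = 0.0357) and without the filter on low counts (adjusted p = 0.0413). Per length, Ctnnb1 exceeded Jup 11.8 ± 0.721-fold on NT (SD, n = 5), 10.8 ± 0.887-fold on RT and 12.2 ± 0.957-fold on HF (SD, n = 6 each).

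**Figure D2:**
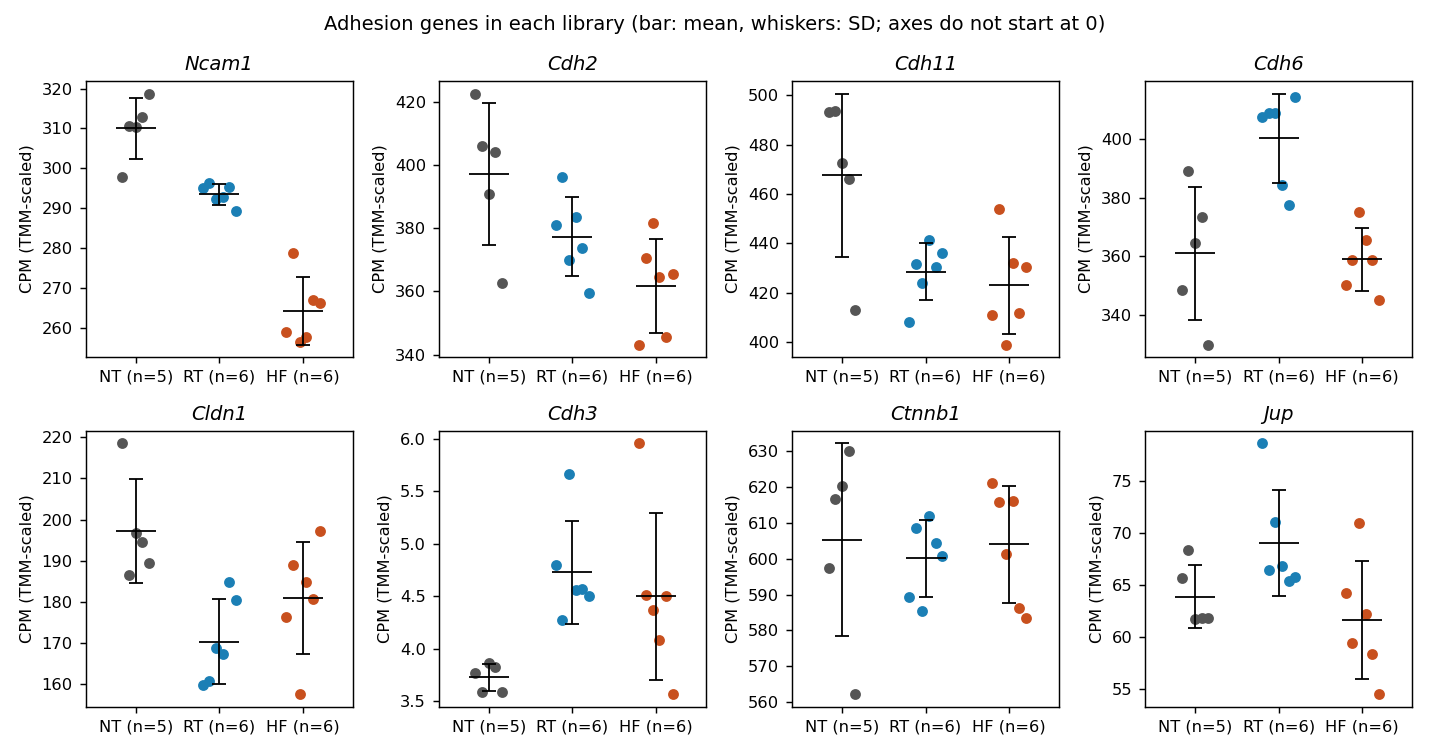
Each point is 1 library and the vertical axes give TMM-scaled CPM for the 8 tested genes on NT (n = 5), RT (n = 6) and HF (n = 6), with the mean and SD; axes do not start at 0. Ncam1 separates all 3 surfaces, Cdh6 is highest on RT, and NT 5, the rightmost NT point, is the lowest NT library for Cdh2, Cdh11, Cdh6 and Ctnnb1.

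**Figure D3:**
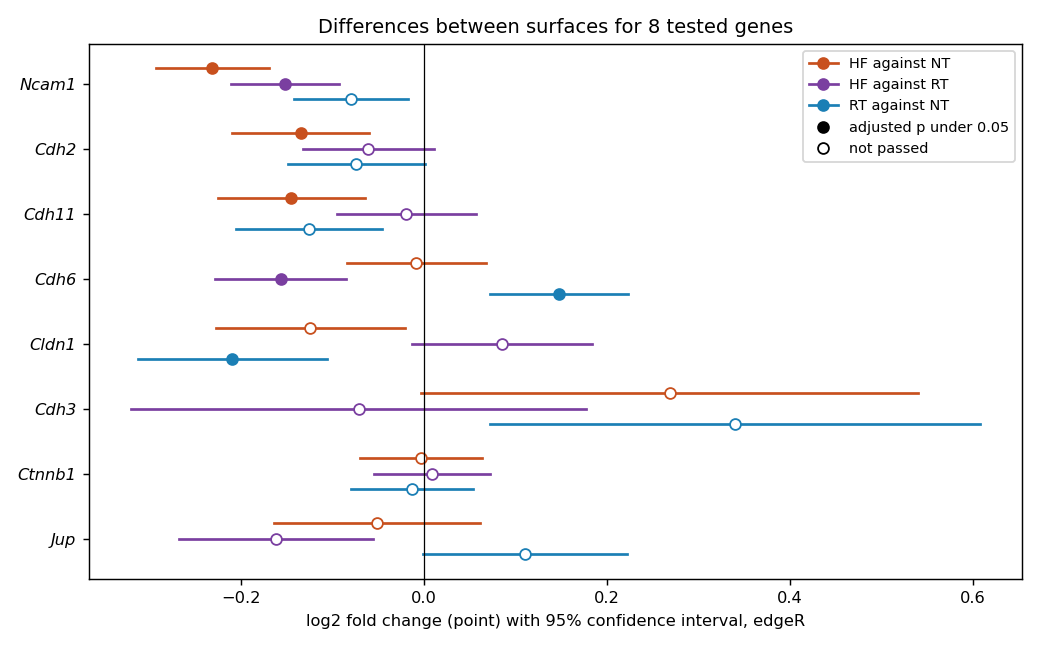
Points give edgeR log2 fold changes and lines their 95% confidence intervals for the 8 tested genes in the 3 comparisons; filled points passed at an adjusted p of 0.05. Ncam1 passed in both comparisons with HF, Cdh6 in both with RT, and the intervals of Ctnnb1 lie closest around 0.

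The make-up of the cadherins by surface is given as a description, with no test. Of the summed level per length of the 5 cadherins, Cdh6 took 28.1% ± 1.04 on NT (SD, n = 5), 31.6% ± 1.05 on RT and 29.9% ± 0.859 on HF (SD, n = 6 each). Cdh11 took 36.8% ± 0.677 on NT, 34.3% ± 0.927 on RT and 35.7% ± 1.28 on HF, and Cdh2 34.5% ± 0.780, 33.3% ± 0.919 and 33.7% ± 0.824. Cdh3 took at most 1.05% in any library. The lowest Cdh6 share on RT, 30.3%, lay above the highest on NT, 28.8%. The ratio of Cdh2 to Cdh6 was 1.23 ± 0.0726 on NT, 1.06 ± 0.0571 on RT and 1.13 ± 0.0395 on HF.

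**Figure D4:**
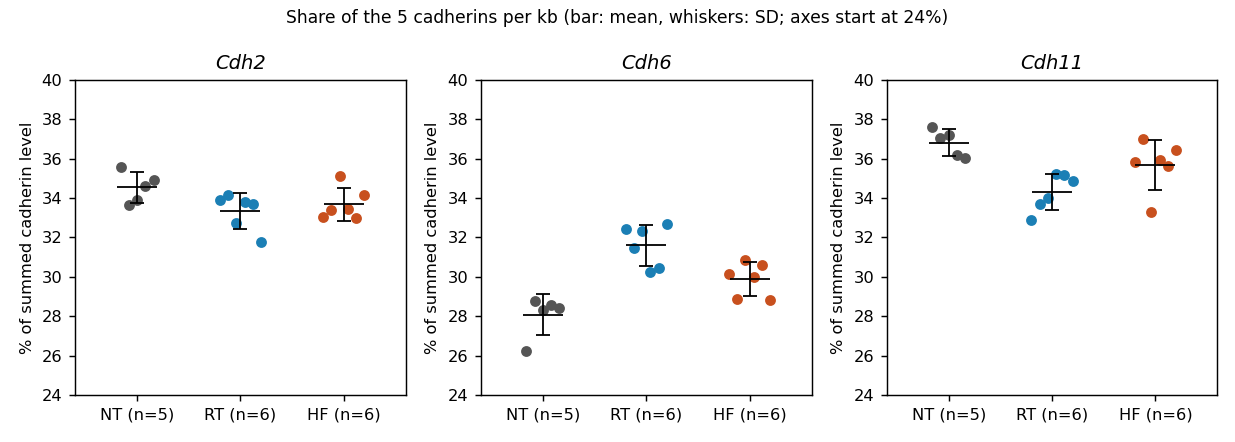
Each point is 1 library, and the vertical axes start at 24%. They give the share of Cdh2, Cdh6 and Cdh11 in the summed CPM per kb of the 5 cadherins, with mean and SD. Cdh16 is not in the sum. The Cdh6 share is lowest on NT, at 26.2% to 28.8%, and highest on RT, at 30.3% to 32.7%.

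The 5 junction lists (other cadherins, catenins and linkers, desmosome, claudins and tight junction, nectins and related molecules) held 37 tested genes. By edgeR, 1 was higher and 0 lower on HF than on NT, where 2.33% of all genes were called. On RT, 3 were higher and 1 lower than on NT, where 3.97% of all genes were called. Between HF and RT 0 passed by edgeR, DESeq2 or limma voom, where edgeR called 0.211% of all genes. At an unadjusted p under 0.05 edgeR had 5 between HF and RT, against 8% of all genes. Vinculin (Vcl), which strengthens junctions and focal adhesions under tension, was higher on both reliefs, at 284 ± 28.5 CPM on NT (SD, n = 5), 339 ± 14.5 on RT and 329 ± 14.8 on HF (SD, n = 6 each). Its log2 fold change was 0.21 ± 0.05 for HF against NT (SE, edgeR adjusted p = 0.0228), a call lost without HF 4 and with only these groups in the fit (adjusted p up to 0.0578), and 0.26 ± 0.05 for RT against NT (SE, edgeR adjusted p = 0.00334). On RT the tight junction linker cingulin (Cgn) rose by 0.69 ± 0.15 on the log2 scale (SE, edgeR adjusted p = 0.00604) and the polarity scaffold Patj by 0.55 ± 0.15 (SE, edgeR adjusted p = 0.0321, lost without any of 6 libraries: NT 3, NT 4, NT 5, RT 1, RT 3 or RT 4). The catenin-like Ctnnal1 fell on RT, with -0.15 ± 0.04 (SE, edgeR adjusted p = 0.0124). Alpha-catenin (Ctnna1), the link from both catenins to actin, stood at 469.8 ± 8.16 CPM on NT, 449 ± 4.94 on RT and 453 ± 10.2 on HF and passed in no comparison. Cdh16 stood at 977 ± 37.8, 976 ± 19.2 and 976 ± 40.6 CPM.

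Genes that control or report beta-catenin showed no call. Of 8 tested beta-catenin targets, 0 passed in any comparison by edgeR, DESeq2 or limma voom, with 2 at an unadjusted p under 0.05 between HF and NT (14.2% of all genes), 3 between HF and RT (8%) and 2 between RT and NT (17.1%). Axin2, a widely used target, stood at 5.01 ± 1.19 CPM on NT (SD, n = 5), 4.88 ± 0.794 on RT and 4.71 ± 0.291 on HF (SD, n = 6 each). Of 9 genes of the destruction complex and the TCF factors, 0 passed by any of the 3 tools, with 1 at an unadjusted p under 0.05 between HF and NT and 0 in the others. Of 7 tested genes for cadherin cleavage and turnover, edgeR called 1, as higher on RT than on NT, where 2.53% of all genes were. This was Mmp14, a membrane-bound matrix protease, at 0.14 ± 0.03 (log2, SE, edgeR adjusted p = 0.00577). Of 5 tested mesenchymal transition factors 0 passed by any tool in any comparison (unadjusted, 1 for RT against NT and 0 in the others), and of the epithelial factors only Grhl1 could be tested and did not pass.

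Some cell type markers changed in the same comparisons. The podocyte markers Wt1 and Pdpn were lower on HF and on RT than on NT (Wt1 log2 fold changes -0.16 ± 0.04 and -0.24 ± 0.04, SE, edgeR adjusted p = 0.0113 and 6.16e-05; Pdpn -0.19 ± 0.03 and -0.13 ± 0.03, adjusted p = 0.000972 and 0.0309). Between HF and RT 0 of 10 podocyte markers passed by edgeR and 0 by limma voom. DESeq2 called 1 higher and 1 lower, where it called 84 of 15196 genes. At an unadjusted p under 0.05 edgeR had 4 (8% of all genes). The RT call of Pdpn was lost without any of NT 2, NT 3, NT 4, RT 1, RT 2 or RT 6 (adjusted p up to 0.0976). Of 9 tested parietal markers, 1 was called between HF and RT, where edgeR called 0.211% of all genes. On either relief against NT 0 were called by edgeR (4 on HF and 2 on RT at an unadjusted p under 0.05, against 14.2% and 17.1% of all genes). On RT against NT, DESeq2 and limma voom each called 1 as higher, where they called 504 and 407 of 15196 genes as higher. Dkk3, a secreted Wnt modulator, was lower on HF than on RT (-0.18 ± 0.03, SE, edgeR adjusted p = 0.0102). Mesenchymal markers had 2 of 9 higher on HF than on NT, where 1.5% of all genes were called higher. These were Fn1 (0.33 ± 0.07, SE, edgeR adjusted p = 0.0144) and Acta2 (0.48 ± 0.10, SE, edgeR adjusted p = 0.0171, lost with only HF and NT in the fit). On RT 3 of 9 were higher than on NT (Fn1, Acta2 and Tagln), where 2.53% of all genes were called higher. In both comparisons 0 were lower. The RT call of Tagln, 0.41 ± 0.12 (SE, edgeR adjusted p = 0.0453), was lost in 10 of 11 omissions of a single library, all but that of NT 5 (adjusted p up to 0.151). Summed mesenchymal markers ran from 5527 to 6725 CPM on NT, 6819 to 7368 on RT and 6617 to 7341 on HF. Fn1 and Vim made up most of these sums. Fn1 averaged 2939 CPM on NT, 3946 on RT and 3692 on HF, and Vim 2275, 2337 and 2313, so the higher sums mostly restate Fn1. Among the tubule markers, the transcription factor Hnf4a was higher on RT than on NT (1.52 ± 0.40, SE, edgeR adjusted p = 0.0252), a call from 2 to 31 reads per library that was lost without NT 3, NT 4, NT 5 or RT 6 (adjusted p up to 0.102). The part of a changed mixture of cells in the differences of Ncam1, Cdh6 and Cldn1 was not tested.

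Within groups the 8 tested genes spread by a few percent. Over the libraries of a group, the coefficient of variation of CPM ran from 0.879% (Ncam1 on RT) to 9.20% (Jup on HF) for the 7 abundant genes and up to 17.8% for Cdh3. Differences between surfaces took 90.5% of the variation of Ncam1 in log2 CPM, 61.2% of Cdh6, 48.2% of Cldn1, 46.3% of Cdh2, 46.1% of Cdh11, 44.7% of Cdh3, 35.1% of Jup and 1.51% of Ctnnb1, where the median gene tested had 14.0%. After group means were removed, the correlation between pairs of genes over the 17 libraries, which share depth and scaling, ran from -0.65 (Cldn1 with Jup) to 0.59 (Cdh11 with Ctnnb1), with 0.54 for Cdh2 with Cdh11 and -0.42 for Cldn1 with Cdh6.

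By likeness of log2 CPM over the 17 libraries, the genes nearest to Ncam1 were Pam (Pearson r = 0.912), Sec62 (0.892) and Reep5 (0.889). Nearest to Cdh6 were the Notch ligand Jag1 (0.941), E130308A19Rik (0.909) and Sort1 (0.888). Cldn1 was most like the transcription factor Snai2 (0.89), Golim4 (0.885) and Antxr2 (0.879), and Cdh11 most like Arhgap28 (0.942), Ids (0.897) and Erbin (0.891). Cdh2 was nearest to Castor2 (0.847), Efcab14 (0.841) and Slc6a6 (0.838), and Cdh3 to Ankrd29 (0.841), Ctns (0.84) and Cntrob (0.83). Nearest to Ctnnb1 were Nop10 (0.845), Slf1 (0.806) and Pptc7 (0.799), and to Jup Pfkfb3 (0.863), Plxnb1 (0.856) and Pepd (0.855). With group means removed, all 24 values ran from 0.405 (Reep5 with Ncam1) to 0.929 (E130308A19Rik with Cdh6). They were picked as the highest of all genes tested and are given as a description.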

How the data were processed

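RNA of 17 libraries was poly-A selected and sequenced as non-directional read pairs, per the labels' protocols. The authors deposited raw counts per gene, whole numbers with no normalization. Per the submitters' processing notes the tools were CASAVA, HISAT2 2.0.5 and featureCounts 1.5.0-p3, with the build GRCm39. Annotation release, strand setting and filters are not given in the sources used here. Symbols, exon lengths and overlaps came from GENCODE M21 on GRCm38, so positions on GRCm39 are not printed. The promoter windows of Cdh6 and Cldn1 carry GRCm38.p6 positions.

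The quasi-likelihood F test of edgeR 4.0.16 (robust, TMM scaling, 1 mean per surface, no covariate) was run on the 15196 genes of 56748 that passed filterByExpr. Its two-sided p-values were Benjamini-Hochberg adjusted across those genes, and 0.05 was the threshold. SE came from the fold change and F. CPM use TMM-scaled totals, and per-kb values use the exon union. Alternatives used DESeq2 1.42.0, limma 3.58.1, other scalings, filters and samples. The fit was tested on simulated data. The genes and lists were chosen with earlier results of these data known. Named genes were the 9, every called gene of the lists, the 3 highest of each marker list and the 3 nearest by correlation; a few others, such as those without reads, were named after their values were seen. Some listed genes are not reported here. Libraries of a group differed by more than sampling noise (chi-square per degree of freedom at least 2.63).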

Additional observations from a re-analysis of the deposited data

Results flagged for a closer look

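Of 26 sets of CPM (1 gene on 1 surface) with any read, 1 held a library whose gap to the others was larger than Dixon's limit. This was Cdh1 in RT 3, at 0.0561 CPM where the other 5 RT libraries were at 0. The value is 1 read. By chance about 1 set in 20 passes this limit.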

How the results depend on the processing

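Ncam1 (both comparisons with HF), Cdh6 (RT against NT) and Cldn1 (RT against NT) kept direction and call in every alternative run. The number of the 9 genes called for HF against NT was 3, and 1 (Ncam1) under each of limma voom, a fit of only the 2 groups, and the libraries numbered 1 to 5 alone, an alternative added after seeing the data. It ran from 1 to 3 when single libraries were left out. For HF against RT it was 2, and 1 (Ncam1) with RLE scaling, limma voom or the libraries numbered 1 to 5, and from 1 to 3 when single libraries were left out. For RT against NT it was 2, then 3 with upper-quartile scaling or no filter (Cdh11 added) and with DESeq2 (Ncam1 added), and from 2 to 4 when single libraries were left out. Fold changes near 0 turned sign: Cdh6 for HF against NT ran from -0.0398 to 0.0192 when single libraries were left out and was 0.0025 with the libraries numbered 1 to 5, and Ctnnb1 for HF against NT ran likewise from -0.0296 to 0.0122, was 0.0020 with the replicate block and 0.0061 with the libraries numbered 1 to 5; for RT against NT it ran from -0.0399 to 0.00186. The cause of these changes was not tested. The surfaces share replicate numbers and no stated pairing. Deviations of same-numbered libraries correlated by 0.0037 to 0.22, and 7 of 17 libraries matched best with their own number. By comparison, the median correlation was 0.0397 to 0.0495 for same-numbered libraries and -0.0141 to -0.00827 for the others. The number may thus carry a weak shared effect, which the main fit leaves out. With the replicate block, 637 genes were called between HF and NT (354 without it), 125 between HF and RT (32) and 995 between RT and NT (603). Of the 9 genes 3, 2 and 3 were called, with Cdh11 added between RT and NT (adjusted p = 0.0193). Counts of all genes called also moved by over 1.5 times for HF against NT with DESeq2 (538), no filter (597) and only the 2 groups (200), and for HF against RT with DESeq2 (84), no filter (148), only the 2 groups (113) and the libraries numbered 1 to 5 (15). When single libraries were left out they ran from 202 to 604, 14 to 89 and 365 to 806. Depth limits Cdh1 (4 reads) and Cdh3.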
